A study of Mus musculus with 18 samples.

Results

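The genes described here are 48 genes of DNA replication and S phase, taken by symbol from a table of 24116 genes measured in mouse intestinal organoids. All 48 symbols were found, and all 48 were at or above 1 RPKM (reads per kilobase of transcript, scaled to the mapped reads of the library) in each of the 18 libraries. Their mean level over the 18 libraries ran from 3.47 RPKM for Gins3 to 56.4 RPKM for Rrm2, with a median of 19.5, and 37 of them averaged at least 10 RPKM. They fall into 9 groups by role: the MCM helicase (6 genes), origin licensing and firing (6), GINS (4), polymerases and primase (9), the sliding clamp and its loader (6), single-strand binding and lagging-strand processing (5), nucleotide supply (5), G1/S regulators (3), and chromatin assembly with maintenance methylation (4).

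Organoid mRNA was sequenced in bulk on 6 consecutive days, days 0 to 5, with 3 libraries a day. All libraries came from wild-type C57BL/6 mice of 8 weeks, and each library pooled 30 wells of a 96-well plate. The medium was the treatment. Cultures were maintained in IntestiCult. For the day before the day 1 collection they were given ENR, a medium with EGF, Noggin and R-Spondin, together with 20% Wnt3a-conditioned medium, 10 µM of the ROCK inhibitor Y-27632 and 3 µM of the GSK3B inhibitor CHIR99021. The libraries of days 2 and 3 followed ENR with Wnt3a-conditioned medium and Y-27632 but no CHIR99021. The libraries of days 4 and 5 followed ENR alone. The labels give no supplement for day 0. The titles name 3 mice: mouse 1 gave replicate 1 and mouse 3 gave replicate 3 throughout, whereas replicate 2 is titled mouse 2 except on days 1 and 2, when it too is titled mouse 1. Replicate 1 was also the library without DNase treatment on every day. Mouse 1 and the missing DNase step thus cannot be told apart, except on days 1 and 2, when mouse 1 gave a library of each kind. Where replicates share a mouse, the p-values measure the spread between libraries, which may in part be technical.

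Before a cell divides, the origin recognition complex with Cdc6 and Cdt1 loads the ring-shaped MCM helicase onto DNA in G1. Cyclin E with its kinase and other factors then turn the loaded ring into an active helicase by adding Cdc45 and GINS. DNA polymerases copy the opened strands on the Pcna clamp, while ribonucleotide reductase and thymidylate synthase supply the deoxynucleotides. In the intestinal crypt these genes mark stem and progenitor cells that are in cycle, and they decline as cells move onto the villus and differentiate. Many of them are classical targets of E2F transcription factors, which Rb family proteins hold in check.

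The libraries held the RNA of epithelium. All 8 epithelial markers (such as Epcam, Cdh1 and Vil1) were at or above 1 RPKM in every library, while the summed level of 8 mesenchymal markers did not exceed 6.57 RPKM, that of 6 immune markers 3.86 and that of 4 endothelial markers 0.24. The depth read back from the steps between low RPKM values lay between 43010000 and 53930000 reads per library, so 1 RPKM stood for 43 to 54 reads per kilobase. Day 0 replicate 1, day 3 replicate 2 and day 4 replicate 3 had stood apart in earlier results on all genes, and counts without these 3 are given beside the main results.

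The 48 genes moved together from library to library. Pearson's r between a member and the mean of the other members over the 18 libraries had a median of 0.96 and was at least 0.8 for 47 of them, the exception being Rpa3 at 0.52. These values are descriptive, since all members share the same libraries. Outside the 48, the 10 tested genes whose profile was most like the members' mean were Nasp (r of 0.992), Exo1, Nup85, Dtymk, Ipo5, Rad54l, Dnajc9, Tipin, Tcf19 and Naa40 (0.978). Nasp is a histone chaperone, Exo1 an exonuclease of repair and replication, and Tipin a fork protection factor.

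**Figure D1:**
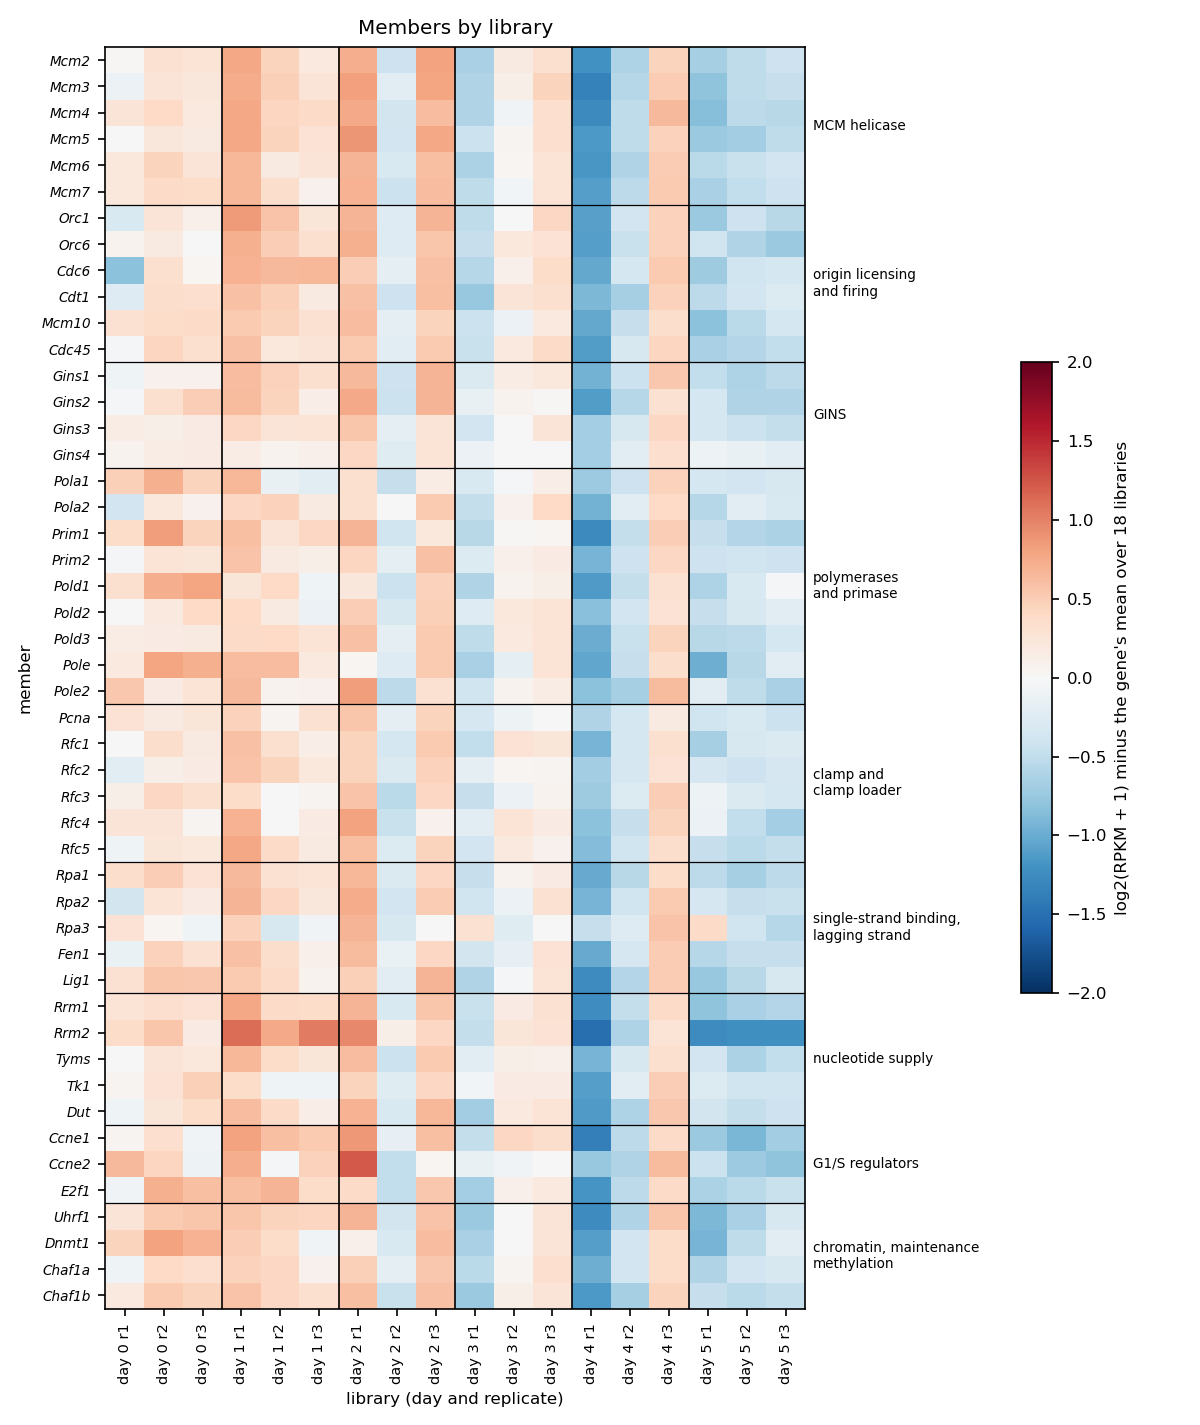
Level of each of the 48 members (vertical axis, by role) in each of the 18 libraries (horizontal axis, day and replicate r1 to r3), as log2(RPKM + 1) minus the gene's own mean over the libraries; red is above and blue below that mean. Day 4 r1 is blue for all 48 members and day 4 r3 red for all 48.

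Read down the columns of the heat map, the libraries of one day were not always alike. The median over the 48 members of the centred log2 level was 0.07, 0.33 and 0.26 in day 0 replicates 1, 2 and 3, and 0.61, 0.39 and 0.22 on day 1. It was 0.62, -0.31 and 0.52 on day 2, then -0.46, 0.07 and 0.26 on day 3. Day 4 spread most, with -1.03, -0.45 and 0.44, and day 5 least, with -0.53, -0.50 and -0.44. Day 4 replicate 1 was the lowest of all 18 libraries for 46 members, and Rpa3 and Ccne2 were lowest in day 5 replicate 3. Day 4 replicate 3 was above the member's own mean for 48 of 48, whereas day 4 replicates 1 and 2 were below it for 48 of 48. Day 2 replicate 2 was the lowest library of its day for 48 of 48 members, and day 3 replicate 1 for 47. The SD of the 3 RPKM values as a percentage of their mean, taken as the median over the members, was 13.0% on day 0, 16.6% on day 1, 33.6% on day 2, 27.2% on day 3, 57.3% on day 4 and 8.95% on day 5. The libraries of days 2 to 4 were thus the least alike.

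The libraries with low replication genes were those with high enterocyte markers. The summed RPKM of 8 enterocyte markers (such as Fabp1, Apoa1 and Alpi, all 8 at or above 1 RPKM in every library) was 1573 to 2213 on day 0, 2904 to 6826 on day 1 and 21227 to 25494 on day 5. On day 2 it was 12203 in replicate 2 against 3516 and 2810 in replicates 1 and 3. On day 3 it was 12407 in replicate 1 against 2843 and 6002 in replicates 2 and 3. On day 4 it was 31289, 15431 and 4606 in replicates 1, 2 and 3. The sum of 5 stem cell markers was 170 to 289 on day 0, 31.8 to 73.5 on day 1 and 18.3 to 119 on day 2. It was 79.3 to 113 on day 3, 220 to 312 on day 4 and 422 to 642 on day 5. Most of the day 5 sum was Olfm4 (355 to 577 RPKM). The single stem cell markers differed. Lgr5 was at 1.33, 28.3 and 32 RPKM on day 0, 0.262 to 2.64 on day 1 and 4.15 to 5.85 on day 5. Ascl2 was at 0.294 to 4.4 RPKM on day 0, 8.88 to 11.3 on day 1 and 4.08 to 4.93 on day 5. The part of cell makeup in the members' levels was not tested, and in bulk RNA fewer replicating cells and less of each transcript per cell cannot be told apart.

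**Figure D2:**
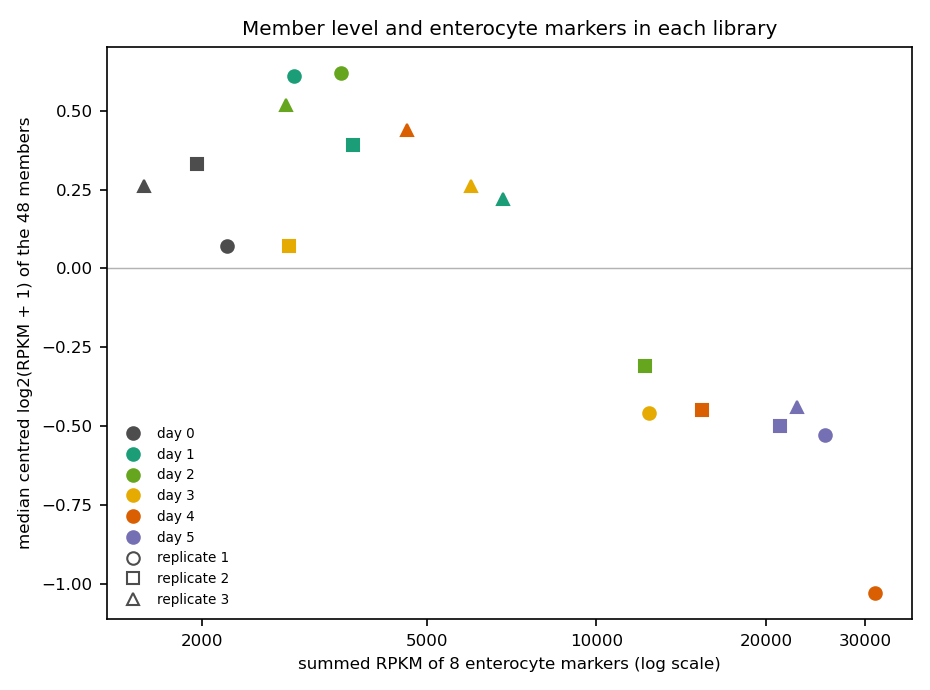
Median centred log2(RPKM + 1) of the 48 members (vertical axis) against the summed RPKM of 8 enterocyte markers (horizontal axis, log scale), with a point for each library (colour: day, shape: replicate). The 7 libraries at 12203 RPKM of enterocyte markers or more all lie below 0, and the other 11 lie above 0.

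Promoters of the members were searched for the letters bound by E2F, because the members moved together. RefSeq (GRCm38.p6) promoter windows of 300 bases, from 250 before to 50 after the start site, were at hand for 40 of the 48 members. An 8-letter E2F match (TTTCCCGC, TTTCGCGC, TTTGCCGC or TTTGGCGC on either strand, where matches on opposite strands may overlap) was in a window of 16 of these 40 genes, against 2.6% of all 27025 genes with an entry and 4.92% of the tested genes with one. Some genes have more than 1 window, and a gene was counted once. The match was found for 4 of 5 MCM genes, 3 of 6 licensing and firing genes and 4 of 7 polymerase and primase genes, but for 0 of 5 nucleotide supply genes. A match is a description of letters, not evidence of binding, and a window without one says only that these letters are not in it. The following stretches, which show how the matches sit in genes of the helicase, are read 5′ to 3′ along the gene, with the E2F letters (merged where matches overlap) in capitals.
Mcm5: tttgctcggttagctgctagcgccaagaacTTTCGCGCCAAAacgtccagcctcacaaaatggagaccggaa
Mcm6: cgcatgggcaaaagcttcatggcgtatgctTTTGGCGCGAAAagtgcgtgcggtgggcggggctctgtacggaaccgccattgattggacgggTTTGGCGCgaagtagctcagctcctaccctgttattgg
Gins3: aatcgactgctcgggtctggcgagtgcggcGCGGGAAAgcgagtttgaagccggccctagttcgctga
The Mcm5 stretch is chr8:75109326-75109397 on the plus strand, its first match beginning 153 bases before the start site. The Mcm6 stretch is chr1:128359715-128359845 on the minus strand, with 3 matches, the first 110 bases before the start site. The Gins3 stretch is chr8:95633488-95633555 on the plus strand, its match 41 bases before the start site. These stretches lie upstream of the RefSeq gene.

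A pair of other motifs was counted in the same windows. CCAAT (either strand), the letters of NF-Y, was found for 60.0% of the members with an entry, for 41.1% of all genes, 43.2% of tested genes and 83.3% of 24 genes of a G2 and mitosis list. The letters TTTGAA (either strand), a core of the cell cycle homology region, were found for 15.0% of the members, near the 14.1% of tested genes, against 20.2% of all genes and 79.2% of the G2 and mitosis genes. An E2F match was found for 4.17% of the G2 and mitosis genes. Within the members the E2F letters did not go with a different size of change: the median log2 change from days 1 to 3 to days 4 and 5, described next, was -0.62 in the 16 with a match (10 called lower) and -0.62 in the 24 without (19 called lower).

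Most of the replication genes were lower on days 4 and 5, after Wnt3a and Y-27632 had been withdrawn. Medium and time in culture changed together in this comparison, so they cannot be told apart. The members' median log2 change was -0.32 from day 2 to day 3, with the medium unchanged (all tested genes: -0.04). It was -0.30 from day 3 to day 4, across the withdrawal (all tested genes: -0.09), and neither step gave a call among the members. Leaving out 1 library at a time moved the first median between -0.61 and -0.13 and the second between -0.70 and 0.05. Whether these 2 steps differ was not tested. Between days 1 to 3 and days 4 and 5, 35 of the 48 members fell and 0 rose (limma on log2(RPKM + 1), Benjamini-Hochberg adjusted p under 0.05 over 11111 tested genes), with 23.7% of all tested genes called lower and 12.9% higher. The median log2 change was -0.62 for the members and -0.13 for all tested genes, and all 48 estimates were below 0. After median-of-ratios rescaling, which moved the median of all genes to -0.01, 30 members were called lower, with 16.2% of all genes called lower and a members' median of -0.48. The DNase-treated libraries alone gave a median of -0.42 and the untreated ones -1.0, with 48 of 48 lower in both, but only 2 members, Rrm2 and Ccne1, were called in the treated libraries alone. Omitting day 4 replicate 1 left 5 calls. Omitting day 4 replicate 2 or day 5 replicate 1 left 15, replicate 3 of day 2 or of day 3 left 17, replicate 1 of day 1 or of day 2 left 18, and replicate 2 of day 3 or of day 5 left 20. Omitting day 4 replicate 3, or all 3 libraries that stood apart, gave 46, and no filter on low values gave 17. The share of all tested genes called under these omissions, and under the alternative fits below, is not given. Those counts show only how far the calls depend on the setting. The 5 members called whichever single library was left out were Orc6, Mcm10, Rrm1, Rrm2 and Ccne1.

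**Figure D3:**
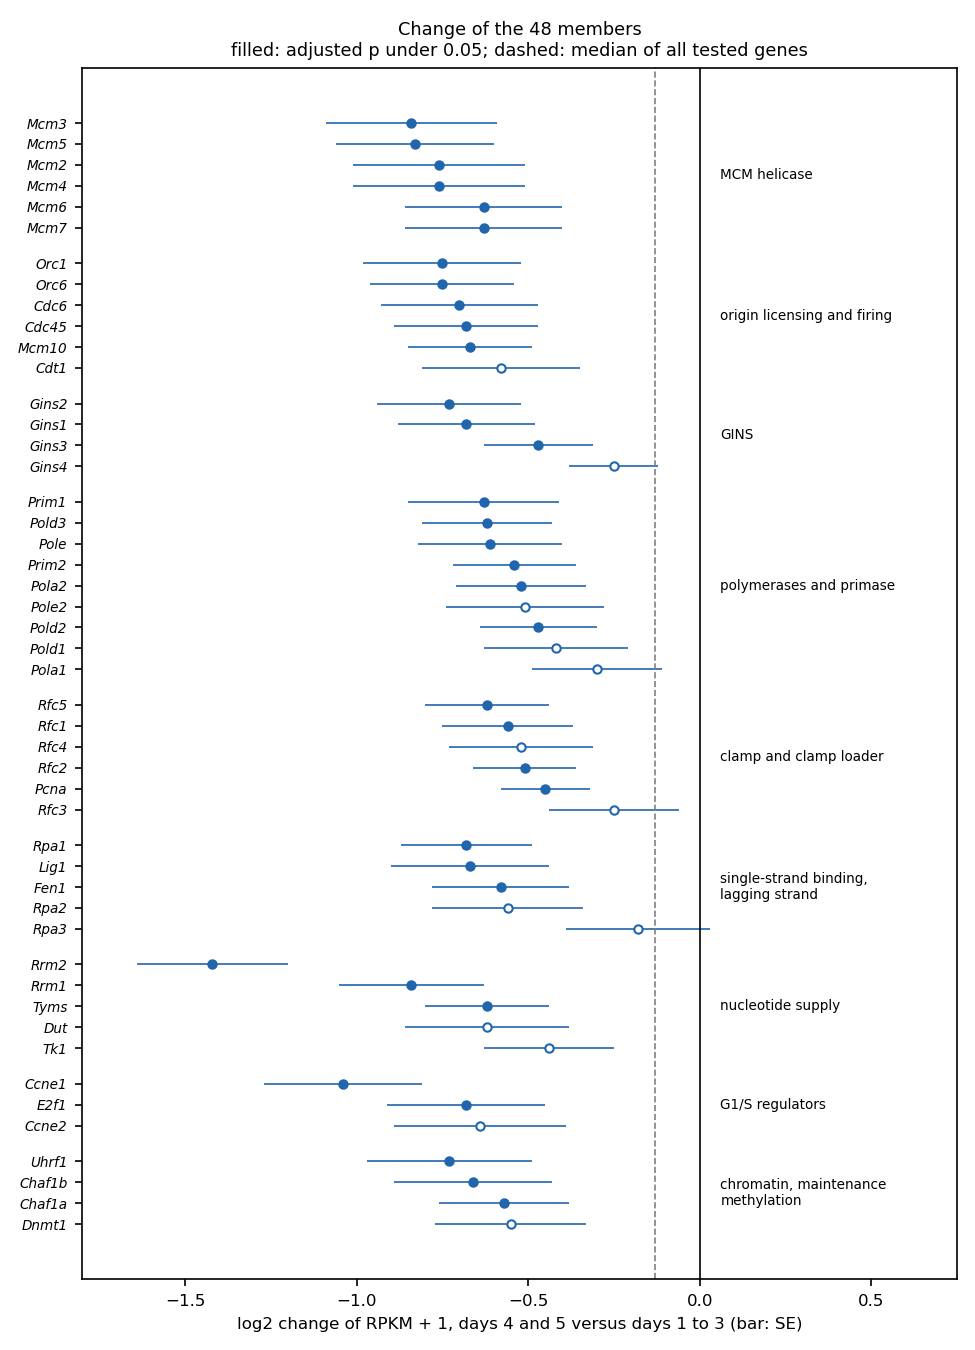
Log2 change of RPKM + 1 between days 1 to 3 and days 4 and 5 (horizontal axis) for each of the 48 members (vertical axis, by role), with bars of 1 SE; filled points have an adjusted p under 0.05 and the dashed line is the median of all tested genes, -0.13. All points lie below 0, with Rrm2 farthest, at -1.42, and Rpa3 nearest, at -0.18.

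The MCM helicase, the ring that unwinds DNA ahead of the fork, fell in all 6 subunits. Mcm5, the subunit with the largest F statistic over days, had 36.8, 43.1 and 41.8 RPKM on day 0, 63.7, 50.8 and 45.3 on day 1, 68.5, 28.0 and 63.6 on day 2, 27.0, 38.2 and 47.0 on day 3, 16.1, 25.6 and 51.3 on day 4 and 21.6, 22.5 and 25.5 on day 5. All day 5 values of Mcm5 lay below all values of days 1 to 3, whereas those of day 4 overlapped every other day. Its log2 change into days 4 and 5 was -0.83 ± 0.23 (SE), with an adjusted p from limma of 0.0148. Mcm3, the subunit with the highest level, went from 65.3, 54.3 and 46.4 RPKM on day 1 to 14.6, 25.7 and 55.3 on day 4 and 21.8, 27.1 and 28.0 on day 5 (-0.84 ± 0.25, adjusted p = 0.0192, limma). Mcm2 and Mcm4 changed by -0.76 ± 0.25 each, and Mcm6 and Mcm7 by -0.63 ± 0.23 each. The subunits of the ring were thus close to each other in size of change.

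Origin licensing and firing genes fell in 5 of 6 cases. Mcm10, a factor that helps activate the loaded helicase, had 11.8, 12.5 and 12.6 RPKM on day 0, 13.9, 13.2 and 11.8 on day 1, 15.0, 8.07 and 13.2 on day 2, 6.75, 8.62 and 10.9 on day 3, 4.12, 6.53 and 12.3 on day 4 and 4.92, 6.19 and 7.15 on day 5. Day 5 lay below days 0, 1 and 2 with no overlap, and it overlapped days 3 and 4. The log2 change of Mcm10 into days 4 and 5 was -0.67 ± 0.18 (adjusted p = 0.0134, limma). Orc6, a subunit of the origin recognition complex and the most abundant of this group, went from 32.8, 28.0 and 24.9 RPKM on day 1 to 14.7, 12.7 and 11.4 on day 5, and its change into days 4 and 5 was -0.75 ± 0.21 (adjusted p = 0.0149, limma). Orc1, which binds ATP in the same complex, changed by -0.75 ± 0.23 at only 4.42 RPKM on average. Cdc45, part of the active helicase, fell by 0.68 on the log2 scale, while Cdt1, the MCM loader, was at -0.58 ± 0.23 with an adjusted p of 0.0612 from limma and was not called.

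Of the GINS subunits, which join Cdc45 on the active helicase, 3 of 4 fell. Gins2 had 19.2, 24.9 and 28.2 RPKM on day 0, 31.1, 27.1 and 21.6 on day 1, 34.1, 14.3 and 32.1 on day 2, 17.6, 20.7 and 20.0 on day 3, 8.54, 12.9 and 24.5 on day 4 and 15.3, 12.6 and 12.7 on day 5. The log2 change of Gins2 into days 4 and 5 was -0.73 ± 0.21 (adjusted p = 0.0174, limma), and day 5 overlapped days 0 to 3 only through day 2 replicate 2. Gins1 changed by -0.68 ± 0.20 and Gins3 by -0.47 ± 0.16. Gins4 was the flattest member of all 48 by range: its highest library was 2.25 times its lowest, and its change of -0.25 ± 0.13 was not called.

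Among polymerases and primase, 6 of 9 members fell. Pole, the catalytic subunit of the leading-strand polymerase, had 6.02, 9.57 and 9.06 RPKM on day 0, 8.36, 8.33 and 6.00 on day 1, 5.28, 4.12 and 7.79 on day 2, 2.89, 4.40 and 6.42 on day 3, 1.98, 3.46 and 6.83 on day 4 and 2.12, 3.16 and 4.23 on day 5. Day 5 lay below days 0 and 1 without overlap, and the change into days 4 and 5 was -0.61 ± 0.21 (adjusted p = 0.037, limma). Pold2, an accessory subunit of the lagging-strand polymerase and the most abundant of the group at 46.9 RPKM on average, changed by -0.47 ± 0.17 (adjusted p = 0.0452, limma). Pold1, the catalytic subunit of that enzyme, was at -0.42 ± 0.21, Pola1, the catalytic subunit of the primer-extending polymerase alpha, at -0.30 ± 0.19 and Pole2 at -0.51 ± 0.23, and these were not called. Prim1, the catalytic primase subunit, fell by 0.63 and Prim2, its partner, by 0.54 on the log2 scale.

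The clamp and its loader fell in 4 of 6 genes. Pcna, the ring that tethers polymerases to DNA, had 64.8, 59.8 and 63.1 RPKM on day 0, 73.0, 54.8 and 65.7 on day 1, 78.6, 46.2 and 72.2 on day 2, 41.8, 49.3 and 53.3 on day 3, 34.5, 41.4 and 60.2 on day 4 and 39.9, 42.6 and 38.9 on day 5. Pcna had the smallest relative spread of all members within day 4, an SD of 29.4% of the mean, and its change was small as well, -0.45 ± 0.13 (adjusted p = 0.0191, limma). Rfc5, Rfc1 and Rfc2, subunits of the loader that opens the clamp, changed by -0.62 ± 0.18, -0.56 ± 0.19 and -0.51 ± 0.15. Rfc4 was at -0.52 ± 0.21 and Rfc3 at -0.25 ± 0.19, neither called.

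Single-strand binding and lagging-strand genes fell in 3 of 5 cases. Rpa1, the large subunit of the protein that coats single-stranded DNA, had 33.2, 36.8 and 31.6 RPKM on day 0, 41.0, 32.1 and 31.4 on day 1, 41.5, 20.9 and 34.6 on day 2, 18.5, 27.1 and 29.2 on day 3, 12.3, 17.2 and 33.5 on day 4 and 17.7, 16.0 and 17.7 on day 5. All day 5 values of Rpa1 lay below those of days 1 to 3, and the change into days 4 and 5 was -0.68 ± 0.19 (adjusted p = 0.0148, limma). Fen1, the flap nuclease that trims Okazaki fragments, changed by -0.58 ± 0.20 and Lig1, which seals them, by -0.67 ± 0.23. Rpa2, another subunit of the complex of Rpa1, was at -0.56 ± 0.22 and was not called (adjusted p = 0.053, limma). Rpa3, the small subunit, had a smaller change than these 2, a difference that was not tested. Rpa3 had 29.2, 24.5 and 22.3 RPKM on day 0 and 31.3, 17.7 and 15.6 on day 5, with replicate 1 highest on 5 of the 6 days, and its change of -0.18 ± 0.21 was not called. Whether the DNase step, absent from replicate 1, has a part in the level of Rpa3 was not tested. On days 1 and 2 mouse 1 gave a library without DNase and a library with it. Rpa3 was at 33.1 RPKM without and 18.9 with DNase on day 1, and at 38.4 and 18.7 on day 2. Such a gap was not particular to Rpa3. The library without DNase was the highest of day 1 for 44 of the 48 members. The mouse 1 library with DNase was the lowest of day 2 for all 48. On the other days the step cannot be told apart from the mouse.

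Nucleotide supply held the member that changed most. Rrm2, the small subunit of ribonucleotide reductase (chr12:24708254-24714146), had 63.1, 72.1 and 54.7 RPKM on day 0, 107, 83.2 and 101 on day 1, 95.8, 53.3 and 65.3 on day 2, 34.7, 58.2 and 59.8 on day 3, 16.6, 31.6 and 59.1 on day 4 and 19.9, 20.3 and 20.3 on day 5. The day 1 values of Rrm2 were above all of day 0, the 3 day 5 values were nearly equal, and only day 4 replicate 1 was lower than these. Its log2 change into days 4 and 5 was -1.42 ± 0.22 (adjusted p = 0.000756, limma). Rrm1, the large subunit of the same enzyme, moved less: 70.3, 53.3 and 52.8 RPKM on day 1 became 22.8, 25.7 and 26.7 on day 5, and the change into days 4 and 5 was -0.84 ± 0.21 (adjusted p = 0.00975, limma). Tyms, which makes thymidylate, changed by -0.62 ± 0.18. Dut, which removes dUTP, was at -0.62 ± 0.24 and Tk1, the salvage kinase for thymidine, at -0.44 ± 0.19, and neither was called.

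Of the G1/S regulators, 2 of 3 fell. Ccne1, cyclin E1 (chr7:38097984-38107490), had 12, 14.9 and 11.0 RPKM on day 0, 21.0, 18 and 17.1 on day 1, 22.0, 10.2 and 18 on day 2, 7.99, 15.8 and 15.0 on day 3, 3.87, 7.72 and 15.4 on day 4 and 6.51, 5.65 and 6.72 on day 5. Day 1 lay above day 0 and day 5 below all earlier days except for day 4 replicate 1. The log2 change of Ccne1 into days 4 and 5 was -1.04 ± 0.23 (adjusted p = 0.00542, limma), and E2f1, an activating E2F factor, changed by -0.68 ± 0.23. Ccne2, cyclin E2, had the widest spread of the members on days 2 and 4, with 11.4, 2.79 and 4.45 RPKM on day 2, and its change of -0.64 ± 0.25 was not called.

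Chromatin genes of the fork fell in 3 of 4 cases. Uhrf1, which reads hemimethylated DNA and recruits Dnmt1, changed by -0.73 ± 0.24, and Chaf1b and Chaf1a, subunits of the histone chaperone CAF-1, by -0.66 ± 0.23 and -0.57 ± 0.19. Dnmt1, the maintenance methyltransferase, had 29.9, 38.7 and 35.5 RPKM on day 0, 30.9, 28.3 and 20.6 on day 1, 23.2, 17.3 and 33.9 on day 2, 13.5, 21.9 and 26.1 on day 3, 9.51, 16.4 and 28.3 on day 4 and 10.9, 15.0 and 18.4 on day 5. The mean of Dnmt1 was highest on day 0. Its change from days 1 to 3 into days 4 and 5, -0.55 ± 0.22, was not called (adjusted p = 0.0577, limma), while its change from day 0 to day 5, -1.20 ± 0.34, was (adjusted p = 0.0215, limma).

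**Figure D4:**
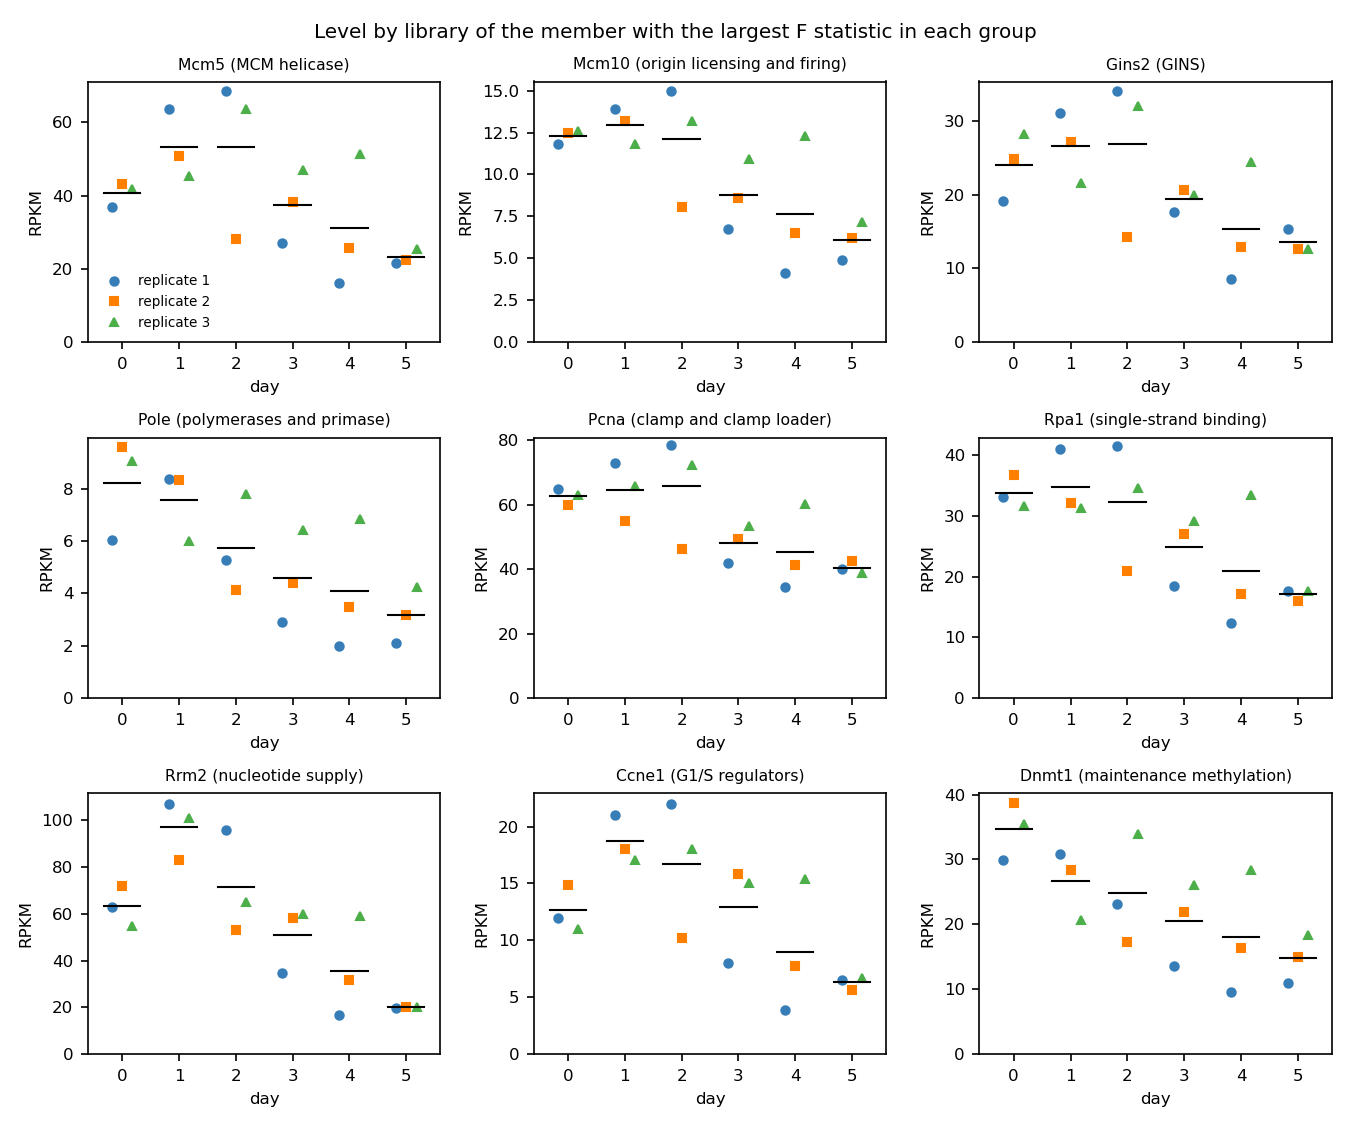
RPKM (vertical axes, each starting at 0) by day (horizontal axes) of the member with the largest F statistic in each group; points are libraries, shaped and coloured by replicate, and bars are day means. The 3 day 5 points of Rrm2 lie at about 20 RPKM against 83.2 to 107 on day 1, and day 4 replicate 3 lies above the other day 4 points in all 9 panels.

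The end of the course was compared with its start by day 5, the day on which the libraries were most alike. From day 1 to day 5, 23 members fell and 0 rose, with 16.1% of all tested genes called lower and 11.8% higher (limma). The median log2 change was -0.87 for the members and -0.15 for all genes, and the day 5 mean was 52.0% of the day 1 mean at the median, from 20.8% for Rrm2 to 86.6% for Rpa3. All 3 day 5 values lay below all 3 day 1 values in 46 of 48 members (95.8%), against 33.8% of all tested genes, the exceptions being Pold1 and Rpa3. The change of Rrm2 was -2.20 ± 0.34 (adjusted p = 0.00077, limma) and that of Ccne1 -1.43 ± 0.36 (adjusted p = 0.0116, limma). Treated libraries alone gave a median of -0.77 and untreated ones -1.11, with 48 of 48 lower in each, and 2 members called in the treated ones alone. Omitting a day 1 library left 2, 4 or 13 calls (replicates 1, 2 and 3), and omitting a day 5 library left 3, 3 or 5. Omitting day 4 replicate 1 gave 36 and day 4 replicate 3 gave 38, and omitting the 3 libraries that stood apart gave 39. With no filter 10 were called, with mouse as a factor 37, and with only the days compared or with array weights 42. Without the share of all tested genes called in these fits, the counts are not a result about the members alone.

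From day 0 to day 5, 11 members (22.9%) fell and 0 rose, with 13.0% of all tested genes called lower and 11.4% higher (limma). The median log2 change was -0.71 for the members and -0.17 for all genes. An unadjusted p under 0.05 was found for 29 members, against 4519 of the 11111 tested genes. Day 5 values lay wholly below day 0 values in 44 members (91.7%), against 34.9% of all tested genes. The 11 were Mcm10, Pola1, Prim1, Pold1, Pole, Pcna, Rpa1, Lig1, Rrm1, Rrm2 and Dnmt1. Rrm2 changed most, by -1.59 ± 0.34 (adjusted p = 0.00615, limma). The median was -0.77 in treated libraries, which alone called 2 members, and -0.64 in untreated ones, where 45 members were lower. With no filter 4 were called, without the 3 libraries that stood apart 18, with only the days compared in the fit 41 and with array weights 47. Omitting a day 0 library left 4, 1 or 1 calls (replicates 1, 2 and 3), and omitting a day 5 library left 1, 1 or 4. Omitting day 1 replicate 3 or day 4 replicate 2 left 7, while omitting day 4 replicate 1 gave 19 and day 4 replicate 3 gave 26. Because these comparisons share the day 5 libraries, their values are set side by side and not added up.

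Between days 1, 2 and 3 on the one hand and day 5 on the other, 12 members (25.0%) had all day 5 values below all 9 earlier ones, against 15.1% of all tested genes. They were Mcm5, Cdc45, Gins1, Prim2, Rfc2, Rfc5, Rpa1, Fen1, Rrm1, Rrm2, Tk1 and Ccne1. Tk1 is in this list, while its change into days 4 and 5 was not called, and its highest library was day 4 replicate 3, at 37.7 RPKM.

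After the first day with Wnt3a, Y-27632 and CHIR99021, no member had passed the threshold. From day 0 to day 1, 0 of 48 members were called (limma), with 18.6% of all tested genes called in either direction. An unadjusted p under 0.05 was found for 1 member, Cdc6, against 3600 of the 11111 tested genes. The median log2 change was 0.13, with 36 members above 0. Cdc6, which loads MCM with the origin recognition complex, had 2.21, 6.12 and 4.82 RPKM on day 0 and 8.23, 7.95 and 8.01 on day 1, a change of 0.83 ± 0.36 (adjusted p = 0.127, limma). The 3 day 1 values of Cdc6 were nearly equal and above all of day 0, and the day 0 spread came mostly from replicate 1. Rrm2 was at 0.61 ± 0.34, Orc1 and Ccne1 at 0.54 each, Gins1 at 0.44 ± 0.32 and Orc6 at 0.42 ± 0.33, none called. All day 1 values lay above all day 0 values in 10 members (20.8%), a share near the 21.6% of all tested genes, and below them in 0 members, against 19.6%.

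Some polymerase genes leaned the other way on day 1, without passing the test. Pola1 had 5.58, 6.74 and 5.44 RPKM on day 0 and 6.51, 3.27 and 3.11 on day 1 (-0.44 ± 0.29), so replicate 1 rose while replicates 2 and 3 were lower. Pold1 had 18.6, 25.0 and 26.3 RPKM on day 0 and 17.7, 19.7 and 13.8 on day 1 (-0.42 ± 0.32). The mean was highest on day 0 for 9 members, on day 1 for 28 and on day 2 for 11. The 9 were Pola1, Prim1, Pold1, Pole, Pole2, Rfc3, Lig1, Tk1 and Dnmt1, none from the MCM, licensing or GINS groups. The direction on day 1 also differed between libraries with and without DNase: the members' median difference was -0.06 (19 of 48 higher) in treated libraries and 0.51 (47 of 48 higher) in untreated ones. The untreated value rests on 1 library a day, and its day 0 library, replicate 1, had stood apart. The treated libraries came from mice 2 and 3 on day 0 and from mice 1 and 3 on day 1. A part of the DNase step was not tested.

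Consecutive days after day 1 gave no calls among the members. From day 1 to 2 and from day 2 to 3, 0 members and 0.0% of all tested genes were called (limma), and the median log2 changes of the members were -0.12 and -0.32. From day 3 to 4, 0 members were called against 0.036% of all genes, with a median of -0.30, and from day 4 to 5, 0 against 0.189%, with a median of -0.15. In each of these 4 steps 0 members had an unadjusted p under 0.05, against 263, 48, 541 and 454 of the 11111 tested genes. The day 4 step differed between the 3 mice. In mouse 1 the members' median difference from day 3 to day 4 was -0.56 (48 lower) and from day 4 to day 5 it was 0.45 (48 higher). In mouse 2 it was -0.54 (48 lower) and then -0.04 (31 lower). In mouse 3 it was 0.19 (46 higher) and then -0.88 (48 lower). With 1 library per mouse and day these differences have no test.

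Over all 6 days, 3 members differed between days by the F test: Rrm2 (adjusted p = 0.0029, limma), Ccne1 (0.0399) and Mcm10 (0.0488). This is below the 25.3% of all tested genes, and 18 members had an unadjusted p under 0.05. With the replicate number as a block, which pairs the mice for replicates 1 and 3, the F test called 7. It called 1 in DNase-treated libraries alone or with no filter, 5 after median-of-ratios rescaling, 9 after quantile normalization or with mouse as a factor, and 47 with array weights. Omitting day 4 replicate 3 gave 42 calls, day 2 replicate 2 gave 16, day 3 replicate 1 gave 5 and the 3 libraries that stood apart gave 38. Omitting any 1 library of days 0, 1 or 5 left 1 call, as did replicate 1 or 3 of day 2, replicate 3 of day 3 and replicate 2 of day 4.

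Other genes of the same processes were followed from lists by role. Of 50 other replication factors, 31 fell and 0 rose between days 1 to 3 and days 4 and 5, with a median log2 change of -0.48 (all tested genes: 23.7% lower, 12.9% higher, median -0.13). The largest changes among them were those of Hells, a chromatin remodeller (-0.90 ± 0.27), Recql4, a helicase (-0.89 ± 0.25), and Ssrp1, part of the histone chaperone FACT (-0.82 ± 0.20). Of 29 G2 and mitosis genes 28 fell and 0 rose, with a median of -0.79, led by Anln, a cytokinesis scaffold, which went from 17.7 ± 3.64 RPKM on day 1 to 5.15 ± 0.884 on day 5 (SD, n = 3). Kif23, Aurka and Cdc20, which act in cytokinesis, spindle assembly and anaphase, changed by -1.07 ± 0.24, -1.03 ± 0.20 and -0.97 ± 0.21. The fall was thus present in genes of S phase and of mitosis, and a difference between these lists was not tested.

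Other enzymes of nucleotide synthesis fell in 16 of 28 tested cases and rose in 2, with a median of -0.55 and 1 gene not tested (all tested genes: 23.7% lower, 12.9% higher). Cad, which starts pyrimidine synthesis, changed by -1.04 ± 0.27, Nme1, a nucleoside diphosphate kinase, by -0.91 ± 0.15, Mthfd2, a mitochondrial folate enzyme, by -0.88 ± 0.26 and Dctd, a deaminase of dCMP, by -0.85 ± 0.27. Of the genes that rose, Samhd1, which breaks down deoxynucleotides, was at 7.09 ± 0.83 RPKM on day 1 and 13.6 ± 1.37 on day 5 (SD, n = 3), and its log2 change into days 4 and 5 was 0.61 (adjusted p = 0.00475, limma). The enzyme that makes deoxynucleotides and the one that removes them thus moved in opposite directions. Dguok, a mitochondrial kinase, was the other, at 0.34.

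Regulators of G1 and S phase were called in both directions. Of 31 tested genes among E2F and Rb factors, cyclins and inhibitors, 12 fell and 5 rose between days 1 to 3 and days 4 and 5, with 23.7% of all tested genes called lower and 12.9% higher. Cdkn2b, an inhibitor of Cdk4 and Cdk6, rose by 1.35 ± 0.31 (adjusted p = 0.00638, limma), and its mean went from 8.72 ± 4.52 RPKM on day 1 to 41.4 ± 8.30 on day 5 (SD, n = 3). Rb1, Rbl2, Tfdp2 and Cdkn1c also rose. Ccnd1, cyclin D1, had the largest called fall, -1.11 ± 0.42 (adjusted p = 0.04998, limma). Mybl2, a partner in late cell cycle transcription, changed by -1.02 ± 0.25 and Cdk6, the G1 kinase, by -0.94 ± 0.34. Ccnd1 also had the largest call of this list from day 0 to day 1, 2.42 ± 0.65 (adjusted p = 0.018, limma). Its mean went from 5.98 ± 4.24 to 33.2 ± 8.89 RPKM (SD, n = 3), on a day when 0 of the 48 replication genes were called. Cdkn1b, an inhibitor of cyclin-dependent kinases, was lower on day 1 (-1.02 ± 0.25).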

How the data were processed

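The authors deposited 1 table of RPKM values for 24116 genes in 18 libraries. Per the submitters' processing notes, bcl2fastq 2.17, STAR 2.5.2b and edgeR 3.20.5 were used with mm10, with settings that no label states. The values were used as log2(RPKM + 1). The 11111 genes that reached 1 RPKM in 3 or more libraries were fitted with limma 3.58.1 (R 4.3.3, lmFit and eBayes with trend), 1 coefficient per day, with Benjamini-Hochberg adjustment over all of them for 8 comparisons and the F test. A call is an adjusted p under 0.05, two-sided. The script was tested on simulated data. Fold changes on this scale understate the change of low genes. Same-numbered replicates of different days correlated with a median r of 0.17, 0.088 and 0.244 for numbers 1, 2 and 3, and differently numbered ones with -0.081. Numbers 1 and 3 each keep 1 mouse in the titles, while number 2 mixes mice 1 and 2. Members in full are, per group, those with the largest F statistic and the highest mean, and the 8 with the largest change from day 0 to day 1 and into days 4 and 5; of other lists, up to 4 called genes are named. Rpa3, Gins4, Tk1, Ccne2 and genes of other lists that rose were named after their values were seen. The members and lists were chosen with earlier results of these data known.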

Additional observations from a re-analysis of the deposited data

How the results depend on the processing

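Every call among the members in day 5 against days 0 and 1 and in days 4 and 5 against days 1 to 3 was lower, under all alternatives run, and the 22 named members kept their direction in these, as did the 8 named for day 1 against day 0. The counts were less stable, and they are given without the share of all tested genes called in the same fit. Leaving out each library in turn gave 1 to 42 for any day, 1 to 26 for day 5 against day 0, 2 to 38 for day 5 against day 1 and 5 to 46 for days 4 and 5 against days 1 to 3, with medians in the last of -0.83 to -0.45. DNase-treated libraries alone gave 1, 2, 2 and 2, a smaller set of 12 libraries. No filter gave 1, 4, 10 and 17. Without the 3 libraries together, the counts for any day and for day 5 against days 0 and 1 were 38, 18 and 39. Array weights, which gave day 4 replicate 2 a weight of 8.56 and replicates 1 and 3 of that day 0.44 and 0.25, called 47 for any day, 47 for day 5 against day 0 and 42 against day 1, 40 for day 4 against day 3, 1 for day 5 against day 4 and 1 for day 1 against day 0; the cause was not tested. Fitting only the days compared called 2 for day 1 against day 0 (Rrm2 and Ccne1), 41 for day 5 against day 0 and 42 against day 1. Mouse as a factor gave 9 for any day, 1 for day 1 against day 0 and 37 for day 5 against day 1. For any day, median-of-ratios rescaling gave 5, quantile normalization 9 and the replicate block 7; the block changed no other count by over 1.5 times. With 3 libraries a day and a within-day SD of 0.41 for the members' median log2 level, the steps between neighbouring days, with medians of -0.32 to -0.12 after day 1, did not pass the test.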
